A study of Mus musculus with 6 samples.

Results

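Cluster 2 of the *NG2-tdT+* cells is 1 of the clusters of canonical pericytes that the study drew from the cortex of naïve and injured mice. Its members are the 1557 cells that carry cluster number 2 in the deposited annotation, out of 10455 *NG2-tdT+* cells in all. Of these, 877 came from the naïve library, 407 from the physical injury library and 273 from the ischemic injury library. The study asked how lineage-traced pericytes respond to injury, and cluster 2 was compared here with its neighbours in the same table, the activated pericytes of cluster 0 (2164 cells) and the canonical pericytes of cluster 1 (1713 cells).

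All 3 libraries came from cortices of *NG2-Cre-ERT2/Ai14-flx* mice aged 3 to 4 months, in which tamoxifen turns on the red protein tdTomato in cells with an active NG2 (Cspg4) driver and in their progeny. Tamoxifen was given 7 days before injury, and cells were taken 3 days after an injection into the cortex of saline (physical injury) or of ET-1 with L-NAME (ischemic injury), or with no injury (naïve). Cells positive for tdT and negative for DAPI were sorted and profiled with 10x Genomics 3' chemistry. Animals of both sexes were pooled into 1 library per condition, so there was no replicate, no test between conditions was made, and intervals below cover counting error only. The driver is also active in oligodendrocyte precursors, so the label alone does not mark a pericyte, and the sort sets which cells enter a library. The cells of cluster 2 had a median of 4376 UMIs (naïve), 5145 (physical injury) and 4755 (ischemic injury), and their summed counts were 3964285, 2201371 and 1343952 UMIs. Pairs of libraries shared between 2 and 5 cell barcodes, of which 1 in each pair belonged to cluster 2.

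Pericytes sit on the outer wall of capillaries, enclosed in the basement membrane that they share with endothelial cells. They are known for PDGFRβ signalling from the endothelium, for ATP-sensitive potassium channels made of Kcnj8 and Abcc9, and in the brain for helping to keep the blood-brain barrier closed. Along the vascular tree they grade into smooth muscle cells, which hold much more of the contractile proteins.

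Cluster 2 carried its 6 leading genes, Atp13a5, Carmn, Tnxb, Trpc4, Lama2 and Slc6a20a, at levels above those of both neighbours in every library, by small margins for Slc6a20a and Carmn against cluster 1. Levels are given in CPM, the pooled UMIs of a gene in 1 cluster of 1 library scaled to a fixed total. Atp13a5, a P5-type transport ATPase typical of brain pericytes, was at 2815 CPM (95% Poisson interval 2763 to 2867) in the naïve library, 2985 CPM (2913 to 3058) with physical injury and 2776 CPM (2688 to 2867) with ischemic injury. It was 1.49-, 1.37- and 1.72-fold higher than in cluster 1, and 1.35-, 1.24- and 1.43-fold higher than in cluster 0. Lama2, the laminin α2 chain of the basement membrane, was at 921, 1063 and 962 CPM in cluster 2, at 446, 590 and 507 CPM in cluster 1 and at 598, 783 and 650 CPM in cluster 0. Trpc4, a calcium-permeable cation channel, was at 200, 230 and 228 CPM in cluster 2, and Tnxb, a tenascin of the extracellular matrix, was at 153, 146 and 129 CPM. Both were lower in clusters 0 and 1 of the same library. Slc6a20a, a transporter of proline and related amino acids, separated cluster 2 from cluster 1 by no more than 1.16-fold, and the intervals of the 2 clusters overlapped in the naïve and physical injury libraries. The long non-coding RNA Carmn, which is known from smooth muscle and the heart, was at 213, 450 and 316 CPM and set cluster 2 apart from cluster 0 (2.23-, 2.20- and 2.99-fold) more than from cluster 1 (1.38-, 1.05- and 1.19-fold), with overlapping intervals in both injured libraries for the latter. These genes were picked as markers from earlier results of these data, and the study built its clusters from the same expression values, which makes every ratio between clusters a description.

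The 16 general pericyte markers were all found in cluster 2, in 2 opposite patterns. The receptor Pdgfrb was at 1796, 1604 and 1721 CPM in cluster 2 and at 1556, 1544 and 1486 CPM in cluster 1. Notch3, the Notch receptor of mural cells, was at 1039, 1050 and 975 CPM against 799, 812 and 778 CPM, and Cspg4, which encodes NG2 itself, was at 910, 825 and 874 CPM against 769, 675 and 744 CPM. These membrane proteins were higher in cluster 2 in all 3 libraries. Abcc9, which forms a channel with Kcnj8, was close to its level in cluster 0 (1.06-, 0.997- and 1.01-fold). Over cluster 1 it was 1.28-, 1.16- and 1.24-fold higher. Vtn, which encodes the adhesive protein vitronectin, ran the other way, at 16740, 15991 and 16110 CPM against 22685, 22918 and 21521 CPM. Kcnj8 was at 1305, 1086 and 1173 CPM in cluster 2, and was lower there than in both neighbours in every library. Higd1b, Ndufa4l2 and Cox4i2, small proteins tied to mitochondrial respiration, were also lower in cluster 2 than in cluster 1, with log2 ratios of -0.66 to -0.46. Over the whole list, 7 members were higher and 8 lower than in cluster 1 in all 3 libraries, while 39.1% and 40.3% of all 3913 genes tested were.

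**Figure D1:**
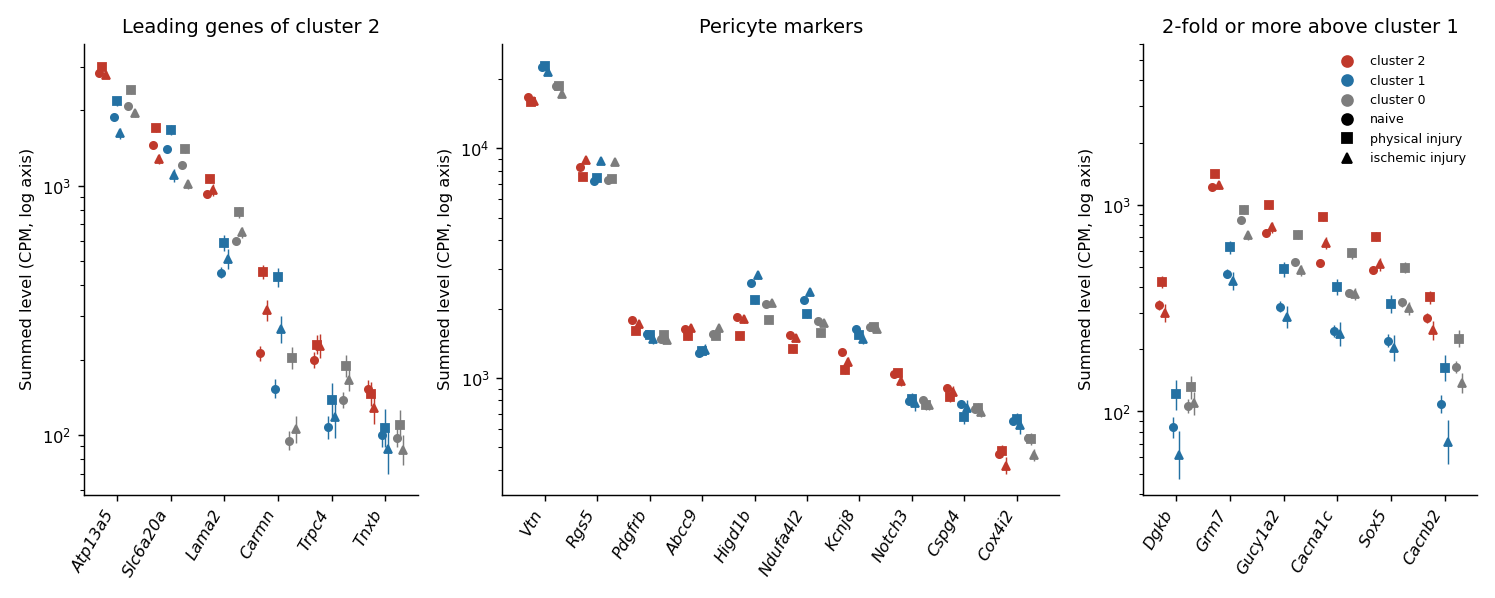
Summed level of marker and leading genes in CPM (log axis) for cluster 2 (red), cluster 1 (blue) and cluster 0 (grey), with 1 point per library and 95% Poisson intervals as bars. The red points of the 6 leading genes and of the genes at right lie highest within each library, while those of Vtn, Higd1b, Ndufa4l2, Kcnj8 and Cox4i2 lie below the blue ones.

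Lists of markers of other cell types held both abundant and absent genes in cluster 2. Of 12 smooth muscle genes the most abundant was Myl9, a myosin light chain shared with pericytes, at 1535 CPM in the naïve library, while Actg2 had no count in any library. The summed 12 endothelial genes reached 395, 375 and 446 CPM, of which Flt1 was the most abundant, and the 10 genes of oligodendrocyte precursors reached 44.6, 33.6 and 84.8 CPM. The 10 oligodendrocyte genes summed to 249, 170 and 457 CPM, highest in the ischemic injury library. Of 12 fibroblast genes 11 were in the table and 10, 9 and 10 had counts in the naïve, physical injury and ischemic injury libraries. They summed to 2667, 2805 and 2918 CPM and consisted mostly of Mgp, a matrix protein that inhibits calcification (2062, 2206 and 2290 CPM). Col1a1, which encodes the main fibrillar collagen of fibroblasts, had no count in the naïve and physical injury libraries. The 9 of 10 astrocyte genes in the table reached 1568.5, 1317 and 1409 CPM, nearly all from Mfge8, a secreted protein also made by vascular cells (1520.07, 1273 and 1369 CPM), while the astrocyte water channel gene Aqp4 had no count in any library. The microglial complement genes C1qa and C1qb had no count in the naïve library.

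Against cluster 1, few genes of cluster 2 lay far apart in every library, and those that did were higher in cluster 2. A gene was called when it lay at least 2-fold apart in the same direction in all 3 libraries, on the scale log2(CPM + 1) and with at least 50 CPM in the higher cluster. By this rule 12 genes were higher in cluster 2, a background share of 0.307% of 3913, and 0 were lower (0%). Taken 1 library at a time, 70 (1.64% of 4277), 50 (1.16% of 4301) and 163 (3.75% of 4342) genes were higher in the naïve, physical and ischemic injury libraries, and 1 (0.0234%), 11 (0.256%) and 17 (0.392%) were lower. The 12 genes were Dgkb, Rps6ka5, Grm7, Cacnb2, Kalrn, Cacna1c, Sox5, Gab2, B3galt1, Gucy1a2, Arhgap32 and Klf12.

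Dgkb, a kinase that turns the second messenger diacylglycerol into phosphatidic acid, led this group. It was at 327 CPM (310 to 346), 425 CPM (398 to 453) and 301 CPM (272 to 331) in cluster 2, at 84.0, 121 and 61.9 CPM in cluster 1 and at 106, 131 and 109 CPM in cluster 0. Its level was thus higher in cluster 2 than in both neighbours in each library, by 3.86-, 3.49- and 4.79-fold over cluster 1. Cacna1c, the pore of the L-type calcium channel that drives contraction of vascular muscle, was at 523, 869 and 655 CPM against 246, 402 and 238 CPM in cluster 1. Its β subunit Cacnb2 was at 284, 357 and 247 CPM against 109, 162 and 71.5 CPM. Both subunits were thus more than 2-fold higher in each library. Gucy1a2, a subunit of the guanylate cyclase that senses nitric oxide, was at 734, 997 and 780 CPM against 322, 488 and 287 CPM. Grm7, a metabotropic glutamate receptor known mostly from neurons, was at 1214, 1406 and 1249 CPM against 465, 624 and 427 CPM. Sox5, a transcription factor of the Sox family, and Kalrn, an exchange factor for small GTPases, were also at least 2-fold higher in all libraries.

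No gene passed the rule in the other direction. The gene that came nearest, Spp1, which encodes the secreted matrix protein osteopontin, was at 189, 93.1 and 145 CPM in cluster 2 and at 408, 211 and 261 CPM in cluster 1, with log2 ratios of -1.10, -1.17 and -0.84. It was followed by Hint2, Pmvk, Mrpl30, Sh3bgrl3, Rps7, Rps27a, Rpl9-ps6, Glrx5 and Ndufa5, all of them lower in cluster 2 in every library. The last 9 include mitochondrial proteins (Hint2, Mrpl30, Glrx5 and Ndufa5) and parts of the ribosome (Rps7 and Rps27a). Reads of the pseudogene Rpl9-ps6 cannot be told apart with certainty from those of its parent gene.

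The genes highest over cluster 1 had a long span in common. The ratios set against gene length here come from the same expression that formed the clusters, so they too are a description. The annotated span of the 10 genes named as highest over cluster 1 ran from 179 to 954 kb with a median of 581 kb, and all 10 belonged to the longest of 4 length classes of about equal size, which starts at 79.4 kb. Dgkb, for example, spans 817 kb of chromosome 12 (37817726 to 38634239, plus strand), and Grm7 spans 922 kb of chromosome 6 (110645581 to 111567230, plus strand), in mm10 coordinates. The 10 genes named as lowest spanned 0.714 to 14.5 kb. Across all genes with a known span the median log2 ratio of cluster 2 over cluster 1 was ordered by class, going in the naïve library from -0.40 through -0.18 and 0.15 to 0.47. In the physical injury library the shortest and longest classes had medians of -0.44 and 0.41, and in the ischemic injury library of -0.42 and 0.55. Of the 985 genes in the longest class, 851 were higher in cluster 2 in all 3 libraries, and of the 970 in the shortest, 801 were lower. Against cluster 0 the order was the same and the range smaller, from -0.15 to 0.28 in the naïve library. Of the 10 genes named as highest over cluster 0, which spanned 15.9 to 817 kb with a median of 118 kb, 8 belonged to the longest class.

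**Figure D2:**
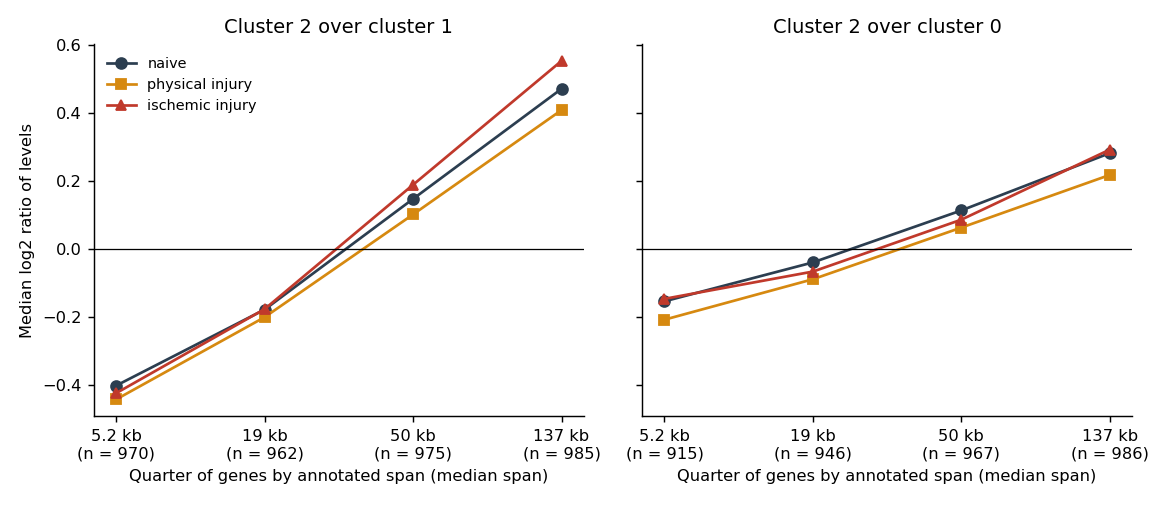
Median log2 ratio of levels (vertical axis) for the genes of each class of annotated span (horizontal axis, with the median span in kb and the number of genes), 1 line per library. All 3 lines run upward from the shortest to the longest class, over a wider range against cluster 1 (left) than against cluster 0 (right).

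The same contrast was seen in gene families and in single cells. Of 78 ribosomal protein genes tested, 77 were lower in cluster 2 than in cluster 1 in all 3 libraries, with medians of -0.55, -0.55 and -0.66, where 40.3% of all genes were lower in this way and the medians of all genes lay between -0.02 and 0.02. Against cluster 0 again 77 of 78 were lower (medians -0.28, -0.30 and -0.25), beside 30.3% of all 3836 genes. Nuclear genes of oxidative phosphorylation were lower than in cluster 1 for 78 of 83 genes, and those of glycolysis for 9 of 11, among them Aldoa (625, 475 and 568 against 904, 736 and 873 CPM). Of 9 genes of the hypoxia response, 8 were lower, Higd1b and Ndufa4l2 among them. In the naïve, physical injury and ischemic injury libraries 1, 4 and 2 oxidative phosphorylation genes reached 50 CPM in cluster 1 alone. For the hypoxia list 1 gene did so in the physical injury library. Malat1, a long non-coding RNA that stays in the nucleus, made up a median of 6.44%, 8.02% and 6.15% of a cell's UMIs in cluster 2, above 3.81%, 4.50% and 3.09% in cluster 1 and 5.05%, 6.82% and 4.50% in cluster 0. The share of UMIs from the genes of the longest class was 23.9%, 26.8% and 23.7% for the median cell of cluster 2, against 18.0%, 20.9% and 17.4% in cluster 1. The median mitochondrial share was 2.50%, 2.66% and 2.60% in cluster 2 and 2.79%, 3.31% and 2.60% in cluster 1. Cells of cluster 1 were also shallower, with medians of 3054.5, 3843.5 and 2984 UMIs. The part of depth and of nuclear RNA content in these ratios was not tested.

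Against cluster 0, cluster 2 stood out by what it had less of, the immediate early genes. In all libraries together 3 genes were at least 2-fold higher (0.0782% of 3836), namely Dgkb, Carmn and Myh11, and 25 were lower (0.652%). The balance of higher and lower genes changed with the filter, as given at the end. Taken 1 library at a time, 6 (0.144%), 9 (0.214%) and 18 (0.427%) were higher and 38 (0.915%), 34 (0.808%) and 43 (1.02%) were lower in the naïve, physical and ischemic injury libraries. Myh11, the myosin heavy chain of smooth muscle, was at 118, 132 and 113 CPM against 41.3, 51.3 and 53.0 CPM in cluster 0. The lower group was made of early response transcription factors and heat shock proteins. Fos, a subunit of the AP-1 factor, was at 1821 CPM (1779 to 1863), 970 CPM (929 to 1012) and 1972 CPM (1897 to 2048) in cluster 2 and at 9475, 4338 and 9850 CPM in cluster 0. The factor Klf4 was at 55.7, 17.7 and 59.5 CPM against 292, 151 and 338 CPM, and the early growth response factor Egr1 was at 646, 283 and 683 CPM against 3527, 1358 and 4291 CPM. All 3 were several-fold lower in cluster 2 in each library. The inducible chaperone gene Hspa1b was at 331, 222 and 196 CPM against 1936, 898 and 917 CPM. Socs3, an inhibitor of cytokine signalling, was at 57.0, 17.3 and 55.1 CPM against 266, 97.5 and 321 CPM.

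Of the 28 tested genes of the immediate early list, which also holds genes known to respond when tissue is dissociated, 28 were lower in cluster 2 than in cluster 0 in all 3 libraries, beside 30.3% of all genes, and 18 were lower by 2-fold or more (medians -1.68, -1.47 and -1.76). In the naïve, physical injury and ischemic injury libraries 2, 4 and 3 list members reached 50 CPM in cluster 0 alone. Jun, which the study uses to mark activated pericytes, is on this list, so the count describes the partition. Cluster 2 and cluster 1 were much closer in these genes, with 7 of 24 higher and 7 lower in every library, beside 39.1% and 40.3% of all genes. The median cell of cluster 2 spent 0.920%, 0.554% and 0.689% of its UMIs on the list, close to 0.967%, 0.542% and 0.605% in cluster 1 and below 4.25%, 1.97% and 3.88% in cluster 0. Cells within cluster 2 still varied, from 0.194% at the 5th percentile to 2.87% at the 95th in the naïve library. In the naïve library that upper end lies above the 5th percentile of cluster 0, 2.02%, so the cells of the clusters overlapped. Of 15 heat shock genes, 14 were lower in cluster 2 than in cluster 0 in all libraries, again beside 30.3% of all genes. In the physical injury library 1 of the heat shock genes reached 50 CPM in cluster 0 alone.

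**Figure D3:**
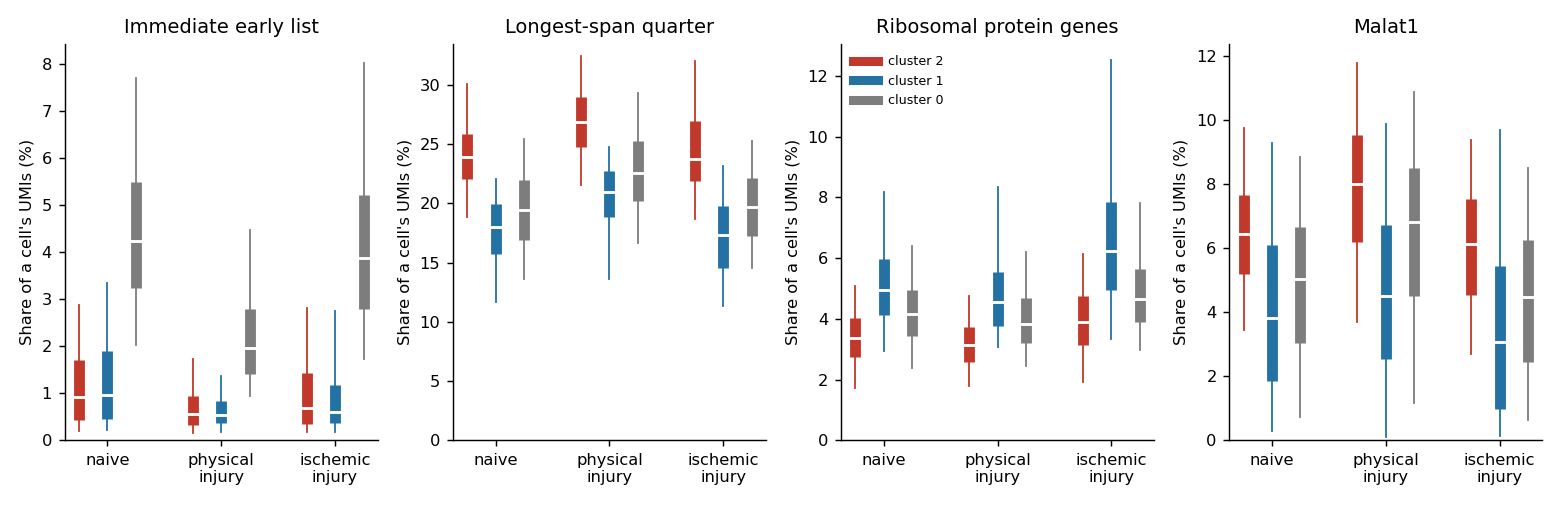
Share of a cell's UMIs in percent taken by 3 groups of genes and by Malat1, for cluster 2 (red), cluster 1 (blue) and cluster 0 (grey) in each library; thin lines run from the 5th to the 95th percentile of cells, thick bars cover the middle of the distribution from the lower to the upper quartile and white marks are medians. Cluster 2 lies close to cluster 1 in immediate early genes and has the highest medians for long genes and Malat1 and the lowest for ribosomal protein genes.

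Among signalling and transport genes of pericytes more were higher than lower in cluster 2. Of 13 tested genes of vascular signals, 10 were higher and 1 was lower than in cluster 0 in all libraries, beside 36.1% and 30.3% of all genes. Against cluster 1, 8 were higher and 4 lower, beside 39.1% and 40.3% of all genes. Prkg1, the kinase that acts downstream of nitric oxide and cyclic GMP, was at 2023, 2405 and 1696 CPM in cluster 2, at 881, 1227 and 675 CPM in cluster 1 and at 1373, 1835 and 1123 CPM in cluster 0. Ednra, the endothelin receptor that responds to the ET-1 injected in the ischemic model, was at 350, 448 and 433 CPM in cluster 2 and at 263, 374 and 285 CPM in cluster 1. Pde3a, a phosphodiesterase of vascular muscle, was at 252, 301 and 294 CPM against 135, 141 and 98.2 CPM in cluster 1. In each case cluster 2 was the higher in all 3 libraries. Rgs4, a brake on G protein signalling, was the 1 lower than in cluster 0, at 1291, 1263 and 1155 CPM in cluster 2 and at 2113, 1911 and 1602 CPM in cluster 0. Of 14 transporters and pumps, 10 were higher and 3 lower than in cluster 1, beside the same shares of all genes. The higher ones included the putative amino acid transporter Slc38a11 (655, 761 and 606 against 390, 571 and 317 CPM). In the naïve, physical injury and ischemic injury libraries 1, 0 and 3 members of the transporter list reached 50 CPM in cluster 2 alone. In cluster 1 alone 0, 2 and 1 did so.

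Genes of the basement membrane, of adhesion to it and of ion channels were higher in cluster 2 than in cluster 1 for most tested members. Of 19 tested matrix genes 15 were higher and 2 lower than in cluster 1 in all libraries, where 39.1% of all genes were higher and 40.3% lower. In the naïve, physical injury and ischemic injury libraries 3, 0 and 1 list members reached 50 CPM in cluster 2 alone. In cluster 1 alone 1, 2 and 0 did so. Lamc1, the laminin γ1 chain, was at 897, 902 and 914 CPM against 698, 803 and 657 CPM, and Lama4, the laminin α4 chain of vessels, was at 372, 360 and 368 CPM against 238, 278 and 243 CPM. The collagen IV gene Col4a1 was at 982, 1002 and 1159 CPM against 810, 860 and 801 CPM. Together with Lama2 these chains were higher in cluster 2 throughout, while Vtn was 1 of the 2 lower. Of 11 genes of integrins and adhesion, 9 were higher and 0 lower than in cluster 1, and likewise against cluster 0, where the shares of all genes were 36.1% and 30.3%. In either comparison 1 list member reached 50 CPM in cluster 2 alone, in the physical injury library. Itga1, an integrin α chain that binds collagen and laminin, was at 2001, 1997 and 1968 CPM against 1485, 1585 and 1383 CPM in cluster 1 and 1680, 1792 and 1641 CPM in cluster 0. Of 15 calcium, TRP and potassium channel genes 10 were higher and 2 lower than in cluster 1. In each library 2 list members reached 50 CPM in cluster 2 alone and 1 in cluster 1 alone. Itpr1, the channel that releases calcium from internal stores, was at 419, 584 and 400.3 CPM against 294, 417 and 252 CPM. In the longest length class 851 of 985 genes were higher than in cluster 1 in all libraries. The part of gene length in these counts, and in those of signalling, transport and transcription factor genes, was not tested.

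Among 20 tested transcription factors of mural cells, 11 were higher and 4 lower than in cluster 1 in all libraries, beside 39.1% and 40.3% of all genes, with a median in the naïve library of 0.07. In each library 1 list member reached 50 CPM in cluster 2 alone, and in the naïve library 1 did so in cluster 1 alone. Against cluster 0, 7 of 20 were higher and 5 lower in all libraries, beside 36.1% and 30.3% of all genes. Ebf1, a factor of stromal and mural cells, was at 1755, 2115 and 1702 CPM in cluster 2 and at 1084, 1428 and 881 CPM in cluster 1. Zeb1, a repressor known from mesenchymal cells, was at 668, 784 and 685 CPM against 333, 487 and 281 CPM. Mef2c, which controls muscle genes, was at 813, 819 and 784 CPM against 552, 674 and 516 CPM. By contrast Foxs1, a forkhead factor of pericytes, was lower in cluster 2, at 162, 214 and 203 CPM against 213, 321 and 261 CPM. The driver of the other lineage line, Tbx18, was at 189, 183 and 165 CPM in cluster 2, at 181, 152 and 131 CPM in cluster 1 and at 174, 154 and 169 CPM in cluster 0, so the 3 clusters held it at similar levels.

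Cluster 2 was not uniform. The 877 naïve cells were also clustered a second time by the study, together with the naïve cells of the Tbx18 line, and all 877 were found again there by barcode. In that clustering 497 of them (56.7%) fell in naïve cluster 2, 163 (18.6%) in naïve cluster 5, 63 (7.18%) in naïve cluster 7, 57 each (6.50%) in naïve clusters 0 and 8, and 37 (4.22%) in naïve cluster 1. The remaining 3 cells were in naïve clusters 3 and 9. In the paper's account of naïve cells, clusters 2, 5 and 7 are smooth muscle cells, endothelial cells and oligodendrocyte precursors. The deposited numbers used here include a cluster 9, which the paper does not name, and do not follow that naming. Of the *NG2-tdT+* cells in naïve clusters 2 and 5, 84.8% and 48.8% belonged to cluster 2. These are the same cells clustered on the same expression, so levels between the groups are again a description.

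The 163 cells of naïve cluster 5 had higher levels of Acta2, Myh11 and some genes of ion transport than the 497 cells of naïve cluster 2. With at least 50 CPM in the higher group, 105 of 4378 genes (2.4%) were at least 2-fold higher and 79 (1.8%) were lower. The cyclin Ccnd1 was at 145 CPM (118 to 175) against 5.26 CPM (2.72 to 9.20), and the sodium-calcium exchanger Slc8a1 was at 123 CPM against 7.90 CPM. The olfactory-type receptor Olfr558 was at 118 CPM against 5.26 CPM, and Atp1b1, the β subunit of the sodium pump, was at 102 CPM against 3.51 CPM. The smooth muscle actin gene Acta2 was at 198 CPM (167 to 234) against 17.5 CPM, and Myh11, the smooth muscle myosin, was at 309 CPM against 81.6 CPM. In cluster 3, the smooth muscle cells of the same library, Acta2 was at 12419 CPM and Myh11 at 3871 CPM, far above these levels, while Olfr558 was at 232 CPM, Slc8a1 at 322 CPM and Dgkb at 1840 CPM, and Ccnd1 was lower at 90.5 CPM. Cnn1, the smooth muscle calponin, had no count in either group. Dgkb was 854 CPM in the cells of naïve cluster 5 and 230 CPM in those of naïve cluster 2. Kcnj8 was at 621 against 1465 CPM, Atp13a5 at 1860 against 3127 CPM and Pdgfrb at 1593 against 1893 CPM, while Carmn was at 231 against 232 CPM. The secreted proteins Itih5 (19.3 against 232 CPM) and Dcn, the proteoglycan decorin (6.89 against 64.0 CPM), were lower as well.

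The 63 cells of naïve cluster 7 differed in the opposite direction for Spp1, Dgkb, Myh11 and Casq2, though not for every gene. Spp1 was at 1961 CPM (1800 to 2132) in them and at 73.7 CPM (63.0 to 85.7) in the 497 cells of naïve cluster 2. Dgkb was at 3.58 CPM, from 1 count, against 230 CPM. Myh11 was at 10.7 CPM and Casq2, the calcium-storing calsequestrin, at 85.9 CPM, against 81.6 and 593 CPM. Spp1 and Dgkb, which lead the contrast with cluster 1 from either end, were thus unequally held within cluster 2 itself. In this pair of groups 81 of 4526 genes (1.79%) were higher by 2-fold or more in naïve cluster 7 and 68 (1.5%) were lower. Ccn2 was higher in naïve clusters 5 and 7 alike, at 99.2 and 78.7 CPM against 17.1 CPM in naïve cluster 2. The median immediate early share was 1.82% in the cells of naïve cluster 7 and 0.707% in those of naïve cluster 2.

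**Figure D4:**
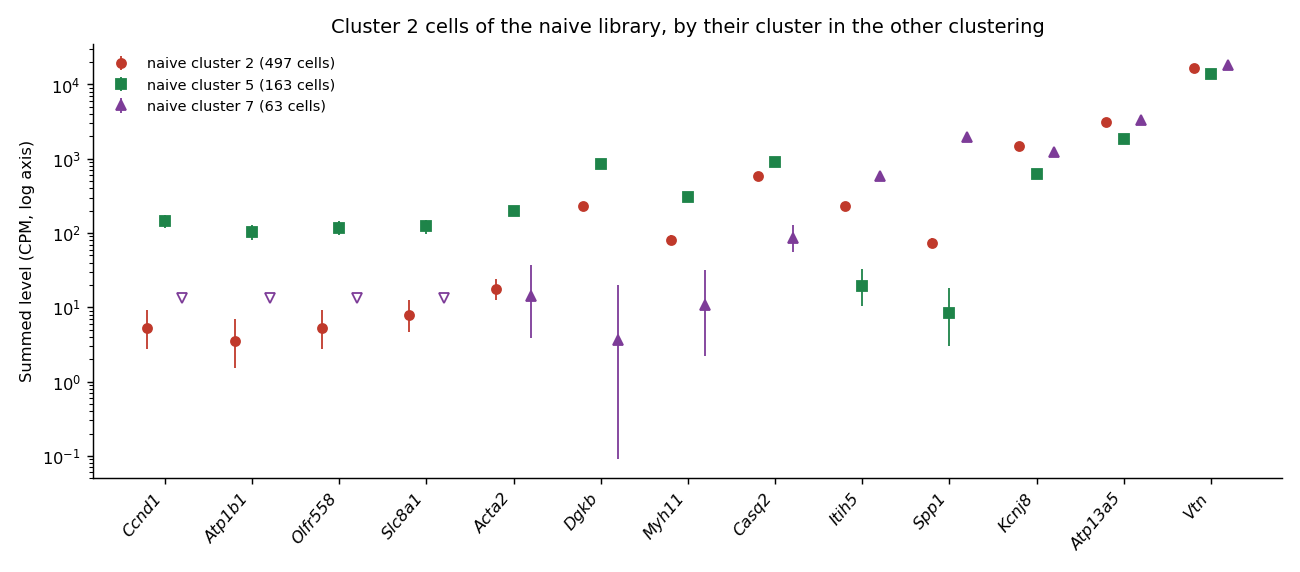
Summed level in CPM (log axis) of 13 genes in the naïve cells of cluster 2, split by the cluster they fell in when naïve cells of both lines were clustered (naïve clusters 2, 5 and 7 drawn), with 95% Poisson intervals; open triangles mark the upper limit of a gene with no count. Acta2, Myh11, Slc8a1, Atp1b1 and Dgkb are highest of the 3 in the cells of naïve cluster 5 and Spp1 and Itih5 in those of naïve cluster 7, and Vtn lies at 16868, 13914 and 18484 CPM in naïve clusters 2, 5 and 7.

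No second clustering was used for the injured libraries. The summed levels of the genes that marked naïve cluster 5 were similar in the 3 libraries of cluster 2, with Ccnd1 at 32.0, 27.3 and 27.5 CPM, Olfr558 at 24.7, 19.5 and 22.3 CPM and Atp1b1 at 20.7, 12.7 and 20.8 CPM.

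As a share of clusters 0, 1 and 2 together, cluster 2 held 27.04% of the naïve cells (25.5% to 28.6%, exact Clopper-Pearson), 36.8% after physical injury (34.0% to 39.7%) and 25.2% after ischemic injury (22.6% to 27.9%). Among all sorted cells the shares were 20.4%, 15.9% and 7.61%. The order of the naïve and physical injury libraries therefore depends on the denominator, and a share within a sort cannot tell fewer cells of a type from more of the others.

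Carmn was the leading gene that varied most between libraries. It had a UMI in 53.0% of the cells of cluster 2 in the naïve library, 84.0% with physical injury and 67.8% with ischemic injury, where the mature oligodendrocytes of cluster 4 had one in 0.971%, 1.02% and 1.18% of cells at medians of 13252, 23779 and 29600.5 UMIs. With each cell thinned to 1000 UMIs, which left out 2 naïve cells, the shares were 19.5% (17.0% to 22.3%), 36.4% (31.7% to 41.2%) and 24.2% (19.2% to 29.7%). Thinned in the same way, Atp13a5 was found in 92.1%, 93.6% and 89.4% of cells, and Lama2 in 59.5%, 65.1% and 54.2%.

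Few genes of cluster 2 differed by 2-fold or more between the physical injury and naïve libraries. Of 4197 genes 8 were higher (0.191%) and 13 were lower (0.31%), beside 7 (0.169%) and 18 (0.436%) in cluster 0 and 20 (0.484%) and 21 (0.508%) in cluster 1. Several of the higher ones were also higher in other cell types of the injured libraries than in those of the naïve one. Cdk8, a kinase of the Mediator complex, was at 211 CPM (197 to 226) in the naïve and 931 CPM (891 to 972) in the physical injury library, and the ischemic injury library was highest at 1694 CPM (1625 to 1765). In the smooth muscle cells of cluster 3 it was at 173, 691 and 1461 CPM, and in the oligodendrocytes of cluster 4 at 68.8, 264 and 324 CPM. Cmss1, a nucleolar protein gene, was at 1019, 3757 and 4537 CPM in cluster 2. It was likewise higher in clusters 0, 1, 3 and 4 of the injured libraries, as were Camk1d and Lars2. The labels name Cell Ranger 7.0.0, while the study's methods name a range of versions. The setting for intronic reads of each library is not given in the sources used here. The part of version and setting in the levels of these 4 genes was not tested. Carmn (log2 ratio 1.08) and Galnt17, a glycosyltransferase (0.93), were higher in clusters 0 and 1 as well.

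Most of the lower genes after physical injury belonged to the immediate early response and to the circadian clock. Jun, a subunit of AP-1, was at 3142 CPM in the naïve, 1306 CPM in the physical injury and 1766 CPM in the ischemic injury library. Klf4, Atf3, Socs3, Klf2 and Egr1 were also lower after physical injury, with log2 ratios of -1.67 to -1.19. Spp1, at 189, 93.1 and 145 CPM in the 3 libraries, and the Y-linked gene Ddx3y were among the 13 as well. Of 28 tested genes of the immediate early list 23 were lower by any amount and 5 higher, beside 56.7% and 43.3% of all genes, and 6 were lower by 2-fold or more. The median of the list was -0.60, and that of all genes was -0.04. With a filter of at least 10 CPM the median of the list was less negative, as given at the end. Of these genes 4 reached 50 CPM in the naïve library alone and 1 in the physical injury library alone, while the 41 list members in the table summed to 11997, 7211 and 10325 CPM in the 3 libraries. Other features of the libraries moved in the same comparison. The median log2 ratio was -0.19 in the shortest of the 4 length classes and 0.14 in the longest. Ribosomal protein genes were lower for 65 of 78 and nuclear genes of oxidative phosphorylation for 75 of 83 (medians -0.12 and -0.23). Of the latter, 3 reached 50 CPM in the naïve library alone. The median share of Malat1 in a cell's UMIs was 8.02% with physical injury and 6.44% in the naïve library. The part of these features in the result was not tested. After ischemic injury the median of this list was 0.09, with 16 of 28 genes higher and 12 lower, beside 50.6% and 49.4% of all genes. Both injury comparisons use the same naïve library. The difference between the injured libraries in these genes was also seen in cluster 0, where Atf3 and Klf4 were higher after ischemic than after physical injury by 2.00 and 1.15, against 1.77 and 1.69 in cluster 2.

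Clock genes differed in both directions. Dbp, an output factor of the clock, was at 315 CPM (297 to 333) in the naïve library, 86.3 CPM (74.5 to 99.5) with physical injury and 228 CPM (203 to 255) with ischemic injury. The clock repressor Nr1d1 was at 265, 121 and 158 CPM. Arntl, the activator that Nr1d1 represses, was at 14.9, 57.2 and 36.5 CPM and so was lowest where Dbp and Nr1d1 were highest. This list of 18 clock genes was added after the values were seen. Of the 10 tested, 3 were lower by 2-fold or more after physical injury (Dbp, Nr1d1 and Hlf) and 1, Arntl, was higher. Over all genes the shares were 0.31% and 0.191%. Arntl reached 50 CPM in the physical injury library alone, and 3 of the 10 did so in the naïve library alone. Genes of either kind could come out in 1 direction only, so the counts are a description. Clusters 0 and 1 showed the same directions, with log2 ratios of -1.64 and -1.55 for Dbp and of 1.66 and 1.32 for Arntl.

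After ischemic injury 12 of 4216 genes were at least 2-fold higher than in the naïve library (0.285%) and 4 were lower (0.0949%), beside 19 (0.468%) and 3 (0.074%) in cluster 0 and 23 (0.562%) and 13 (0.318%) in cluster 1. The excess of higher over lower genes in cluster 2 did not hold under the other filters and cell subsets given at the end. Beside Cdk8, Cmss1, Camk1d and Lars2, the higher genes included Isg15, Cd9, Lgals3bp, Lgals1, Sertad1 and Vim. Isg15, a ubiquitin-like protein induced by interferon, was at 16.6 CPM (12.9 to 21.2) in the naïve, 25.4 CPM (19.2 to 33.0) in the physical injury and 68.5 CPM (55.2 to 84.0) in the ischemic injury library. It had a UMI in 5.93%, 8.35% and 14.3% of cells. In the ischemic injury library the 14 cells with most of its UMIs held 69.6% of them. Ifitm3, an antiviral membrane protein, was at 759, 805 and 1356 CPM. The ischemic injury library was the highest of the 3 for both genes. The 39 interferon genes summed to 3329, 3353 and 4728 CPM.

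Lgals1, the secreted lectin galectin-1, was at 189, 199 and 406 CPM in the naïve, physical injury and ischemic injury libraries. The intermediate filament vimentin (Vim) was at 83.5, 90.4 and 168 CPM, and the tetraspanin Cd9 at 23.7, 31.3 and 57.3 CPM. For all 3 the intervals of the naïve and physical injury libraries overlapped, and the ischemic injury library lay above both. The injury and scar list, of which 37 genes were in the table, summed to 1412, 1346 and 2136 CPM. No count of its members or of the interferon genes is given, since 3 and 2 of them reached 50 CPM in the ischemic injury library alone. Lgals1 and Isg15 were higher in clusters 0 and 1 too, where the log2 ratios of Lgals1 were 1.03 and 1.65, against 1.10 in cluster 2, and those of Isg15 were 2.21 and 2.14, against 1.98. Ribosomal protein genes were higher after ischemic injury for 72 of 78 (median 0.23), beside 50.6% of all genes.

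**Figure D5:**
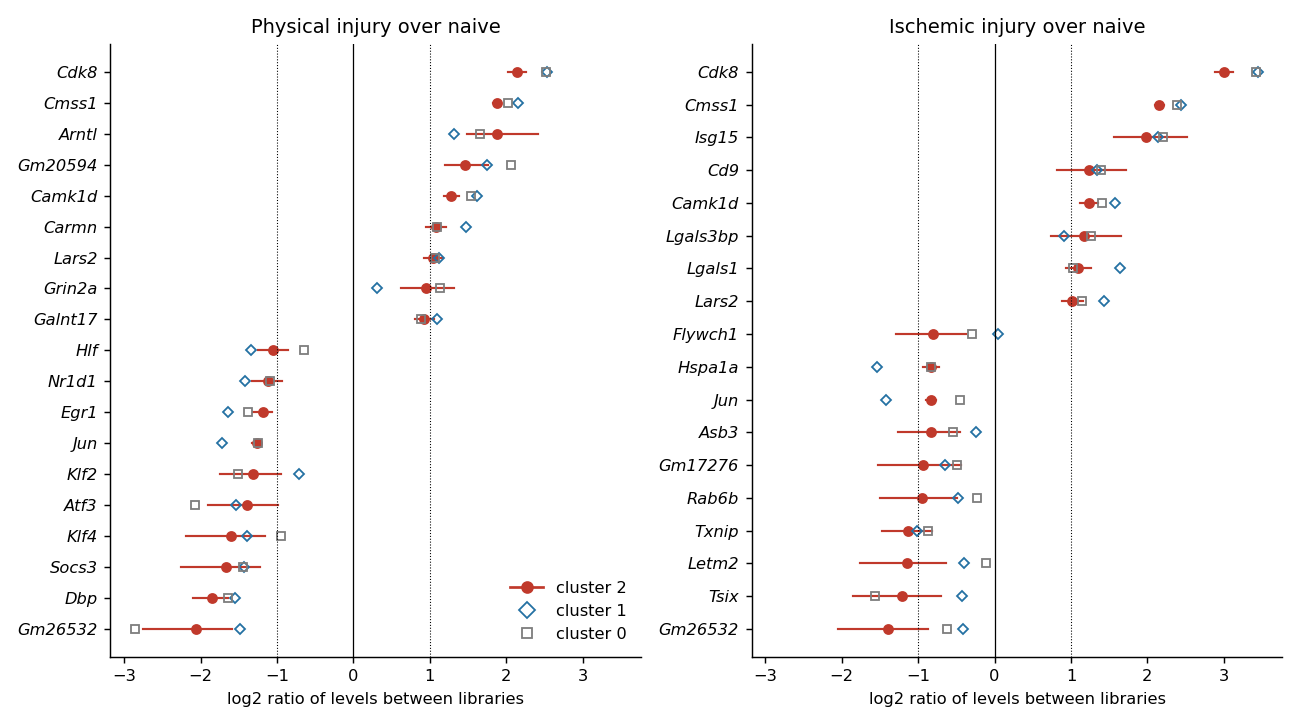
The log2 ratio of levels between an injured and the naïve library (horizontal axis) for the genes with the largest ratios in cluster 2 (red, with 95% Poisson intervals), beside clusters 1 (blue diamonds) and 0 (grey squares); dotted lines mark 2-fold. Cdk8, Cmss1, Camk1d and Lars2 lie to the right of 0 in all 3 clusters and both comparisons.

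The genes lower in the ischemic injury than in the naïve library were Gm26532, Tsix, Letm2 and Txnip. Txnip, an inhibitor of thioredoxin that follows glucose supply, was at 150, 89.5 and 67.7 CPM in the naïve, physical injury and ischemic injury libraries, and was also lower in clusters 0 and 1, with log2 ratios of -0.87 and -1.01. Tsix, the antisense partner of the X-inactivation transcript Xist, was at 53.2, 58.6 and 22.3 CPM.

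Cells with transcripts of Xist and of Y-linked genes made up different shares of cluster 2 in the 3 libraries. The methods describe pools with as many female as male tissues. Cells with a UMI of Xist and none of 4 Y-linked genes made up 59.98% of the naïve cells (56.6% to 63.2%), 68.8% after physical injury (64.0% to 73.3%) and 38.1% after ischemic injury (32.3% to 44.1%). Those with a Y-linked UMI and none of Xist were 25.8%, 17.9% and 44.0%, and those with neither were 12.4%, 12.5% and 17.6%. In the ischemic injury library the intervals of the first 2 kinds overlapped (38.0% to 50.1% for the second). The ischemic injury library thus held the largest share of cells of the second kind. Between the injured libraries 19 of 4240 genes were at least 2-fold higher after ischemic injury (0.448%) and 3 were lower (0.0708%), beside 29 (0.698%) and 9 (0.217%) in cluster 0 and 32 (0.765%) and 31 (0.741%) in cluster 1. Ddx3y was 1 of the 19 higher genes, and the sex-linked genes Xist (log2 ratio -1.13) and Tsix (-1.35) were 2 of these 3. On the higher side Atf3, Klf4 and Socs3 had log2 ratios of 1.62 to 1.77. Fos, Egr1 and Ier2 were also among the 19. Ribosomal protein genes were higher for 76 of 78 and nuclear genes of oxidative phosphorylation for 74 of 82. Of all genes 54.4% were higher and 45.6% lower. Among the oxidative phosphorylation genes 2 reached 50 CPM in the ischemic injury library alone.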

How the data were processed

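The deposited UMI counts per gene and cell (22833 genes, 10455 *NG2-tdT+* cells) were used as the authors left them, with the cluster numbers of their integrated Seurat object. Per the labels, Cell Ranger 7.0.0 was used with mm10, while the methods name a range of Cell Ranger versions. The percent of mitochondrial transcripts per cell is the authors' deposited value. Neither source mentions doublets, and none were removed here.

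For each cluster and library the counts of its cells were added up and scaled to CPM by their UMIs. The libraries held 20264659, 24674494 and 54276245 UMIs (naïve, physical and ischemic injury). Ratios were taken as log2((CPM + 1)/(CPM + 1)) for genes with at least 50 CPM in the higher group, and a gene was called at 2-fold. With 1 pooled library per condition no model was fitted. Intervals are exact Poisson for levels and their ratios and exact Clopper-Pearson for shares, at 95%. Named genes were the 10 each way with the largest ratio (5 each way between the injured libraries, and for clusters the smallest of the 3 libraries' ratios), plus the leading genes and pericyte markers and up to 4 members of each gene list. Genes compared within the naïve cells, the matrix, channel and adhesion examples and the clock list were chosen after their values were seen. Mitochondrially encoded genes, Gm42418 and AY036118 were left out. Some genes that the rule names are not reported here. The members, gene lists and comparisons were chosen with earlier results of these data known.

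Gene spans come from GENCODE M21, which gave a span for 99.5% of the 3913 genes tested against cluster 1 and may not be the authors' annotation. The ratios were tested on simulated counts with known changes. TMM factors (edgeR 4.0.16), other filters and pseudocounts, and subsets of cells were tried as alternatives. Software was Python 3.11.15, numpy 2.4.6, pandas 2.3.3, scipy 1.17.1, matplotlib 3.10.9 and R 4.3.3.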

Additional observations from a re-analysis of the deposited data

How the results depend on the processing

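No paired analysis was possible because each condition is 1 library and the labels give no replicate numbers. Ranges between mice are unknown, and low genes limit the injury comparisons. In the order cluster 2 against cluster 1, against cluster 0, physical injury against naïve, ischemic injury against naïve and ischemic against physical injury, the genes called numbered 12, 28, 21, 16 and 22. They became 28, 48, 107, 183 and 221 with a filter of at least 10 CPM, and 59, 71, 802, 1358 and 1452 with no filter. With cells that had a Y-linked UMI and none of Xist the last 3 counts were 141, 67 and 172, and with cells of the other kind the last 2 were 49 and 58. Without cells with UMIs of other types the last was 34. Pseudocount, TMM factors, means over cells, the authors' filters and removal of the cells with most UMIs kept all 5 counts within 1.5 times. The share of genes that were higher among those called against cluster 0 was 35.4% at 10 CPM and 50.7% with no filter, where it had been 10.7%. After ischemic injury it was 12 of 16 and lay between 39.2% and 54.5% under the filters and cell subsets named here. The cause of these differences was not tested.

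Of 900 values of named genes under the alternatives, 59 moved, 34 of them in the cells with a Y-linked UMI and none of Xist and 17 in cells of the other kind. Another 3 changed sign, all in the cells with a Y-linked UMI and none of Xist: Glrx5 against cluster 1 (0.28), Grin2a after physical injury (-0.18) and Hspa1a after ischemic injury (0.22). In these cells Tsix had a log2 ratio of 0.0 after ischemic injury and between the injured libraries, and Xist was at 0.0 because they were chosen for having none. As a share of mural cells (clusters 0, 1, 2, 3, 8 and 10) cluster 2 was 22.1%, 28.0% and 16.6% in the naïve, physical and ischemic injury libraries, as a share of clusters 0, 1 and 2 it was 27.04%, 36.8% and 25.2%, and with the authors' filters applied again the naïve share of all sorted cells was 21.9%. Thinned to 2000 UMIs in place of 1000, shares of cells with a UMI in the same library order were 98.4%, 99.0% and 98.5% for Atp13a5, 32.4%, 55.2% and 48.3% for Carmn and 79.5%, 84.3% and 75.5% for Lama2.

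For comparisons with cluster 0 or cluster 1 the library behind each median below is not given, so it cannot be read as a change from a naïve median above. Medians of gene lists moved by 0.1 or more in 1 of 111 values with TMM factors, where that of mural transcription factors against cluster 0 was -0.038, and in 14 of 111 with at least 10 CPM. At 10 CPM these were 0.21 (chemokines and inflammation, ischemic against physical injury) and 0.37 (the same, ischemic injury), -0.23 (clock, against cluster 0) and -0.19 (clock, ischemic injury), -0.32 (hypoxia response, against cluster 1), 0.12 (ischemic injury) and 0.040 (physical injury), -0.32 (immediate early genes, physical injury), -0.21 (injury and scar, against cluster 1) and 0.060 (physical injury), -0.15 (interferon, against cluster 1) and 0.087 (physical injury), -0.22 (nuclear-retained RNAs, ischemic against physical injury) and 0.10 (vascular signals, against cluster 0).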
